A study of Mus musculus with 12 samples.

Results

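Wdr95, Amigo2, Kbtbd11, Lypd6 and Adam19 were 5 of the 31301 genes counted in mouse bone marrow-derived basophils, and all 5 passed the filter on low counts that left 10861 genes for testing. They were picked because they were almost silent in immature and clearly expressed in mature basophils grown in IL-3. Their rise in IL-3 cultures was thus the reason for the choice and not a result. The question here was how far basophils grown in TSLP followed this switch. Bone marrow cells of wild-type C57BL/6J mice were cultured for 7 days with IL-3 at 0.3 ng/mL or with TSLP at 1 µg/mL, and CD200R3+ c-Kit- cells were split by sorting. Cells with high FcεRIα and low CD49b are called immature, and the study names them pre-basophils, while those with low FcεRIα and high CD49b are called mature. No genetic change was present in any group. Immature and mature cells of both cytokines made 4 groups, each with 3 libraries of bulk RNA. One of the sample labels gives the TSLP dose in mg rather than µg per mL, and the µg value of the culture protocol was used.

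IL-3 and TSLP are the cytokines that drive basophils out of bone marrow progenitors, IL-3 through the common beta chain and TSLP through its own receptor paired with the IL-7 receptor alpha chain. Most of the 5 genes encode proteins of the cell surface. Amigo2 encodes an adhesion protein with leucine-rich repeats and an immunoglobulin domain, Adam19 a membrane-anchored metalloproteinase that can shed surface proteins, and Lypd6 a lipid-anchored protein of the Ly6 family that acts on Wnt co-receptors and on nicotinic acetylcholine receptors. Kbtbd11 encodes an intracellular BTB-kelch protein, a class that hands substrates to CUL3 ubiquitin ligases, and Wdr95 a WD repeat protein.

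The 5 genes lie on 5 chromosomes (GRCm38, GENCODE M21 models). Wdr95 spans chr5:149528679-149611894 on the plus strand, Amigo2 chr15:97244125-97247287 on the minus strand, Kbtbd11 chr8:15011025-15033333 on the plus strand, Lypd6 chr2:50066429-50193569 on the plus strand and Adam19 chr11:46055992-46147343 on the plus strand. The 250 bases before the RefSeq start site (GRCm38.p6), which are not transcribed from that start, are shown 5′ to 3′ for the 3 genes with an entry, since Lypd6 and Adam19 moved together in these libraries and Amigo2 moved differently. The Amigo2 window is chr15:97247288-97247537 (minus strand), the Lypd6 window chr2:50066179-50066428 (plus strand) and the Adam19 window chr11:46055734-46055983 (plus strand), the one of its 3 RefSeq windows that lies at the start of the gene model. Capitals mark the match to a motif.
Amigo2: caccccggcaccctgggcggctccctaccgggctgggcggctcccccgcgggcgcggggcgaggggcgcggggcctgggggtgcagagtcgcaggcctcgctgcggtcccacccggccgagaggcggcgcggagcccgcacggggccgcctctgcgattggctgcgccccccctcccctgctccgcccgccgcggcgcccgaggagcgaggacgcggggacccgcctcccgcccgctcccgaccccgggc
Lypd6: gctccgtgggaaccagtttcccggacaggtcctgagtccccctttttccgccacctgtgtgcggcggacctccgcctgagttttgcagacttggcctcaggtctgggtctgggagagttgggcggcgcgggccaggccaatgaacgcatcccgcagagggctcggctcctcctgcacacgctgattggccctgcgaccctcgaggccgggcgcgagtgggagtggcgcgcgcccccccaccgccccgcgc
Adam19: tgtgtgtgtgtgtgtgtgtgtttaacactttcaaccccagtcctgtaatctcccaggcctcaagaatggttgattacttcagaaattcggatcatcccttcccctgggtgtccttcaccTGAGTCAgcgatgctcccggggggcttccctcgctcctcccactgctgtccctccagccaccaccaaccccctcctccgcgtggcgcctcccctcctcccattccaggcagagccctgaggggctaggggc

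Motifs of 5 factor families were searched on both strands, and no match overlapped a match to another motif. They were GATAA (GATA factors), which 22.6% of the 32851 RefSeq promoter windows of this length held, then TTCNNNGAA (STAT factors) in 7.02%, then TTGCNNAA (C/EBP factors) in 9.56%, then TGANTCA (AP-1) in 6.75%, and TGTGGT (RUNX factors) in 14.0%. The printed Adam19 window held 1 AP-1 match, while the Amigo2 and Lypd6 windows held none of the 5. Of the other Adam19 windows, 1 held a GATA match and 1 a RUNX match. Lypd6 and Adam19, whose levels ran most alike, thus shared none of these motifs in the printed windows.

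The libraries held 1720065 to 3685285 counts each, and 22634 genes had at least 1 count. Levels are given as CPM, counts scaled to a common library size after TMM normalization, and 3 counts over a group, the limit that a count of 0 allows, equal 0.286 to 0.386 CPM. This limit covers counting error only. All 10 listed basophil genes were detected in every group, and their summed level was lower in mature than in immature libraries, at 12300 to 15300 against 41700 to 45300 CPM in IL-3 and 9250 to 13200 against 29300 to 32100 CPM in TSLP. This sum weighs the most abundant genes most, and single genes went both ways. In IL-3, 4 of the 10 were called higher in mature cells and 5 lower (edgeR adjusted p under 0.05), against 24.1% and 22.1% of all genes tested. In TSLP, 2 were called higher and 4 lower, against 12.9% and 12.2%. Of the transcripts linked to the sort, Clec12a, which marks the immature cells, stood at 261 and 127 CPM in IL-3 and TSLP immature cells and at 6.26 and 5.32 CPM in the mature cells (means, n = 3). Itga2, which encodes CD49b, rose with maturation in both cytokines (IL-3 log2 difference 3.18 ± 0.28 SE, edgeR adjusted p = 1.67e-07, and TSLP 0.96 ± 0.254 SE, adjusted p = 0.0111). Fcer1a, which encodes the FcεRIα chain, was lower in mature cells of IL-3 (1600 and 1020 CPM in immature and mature cells, -0.64 ± 0.237 SE, adjusted p = 0.0355). In TSLP no difference was called (1340 and 1260 CPM, -0.08 ± 0.236 SE, adjusted p = 0.835), with an SD of 466 CPM in the mature cells. The 2 cytokines were not called different in this effect (TSLP minus IL-3 0.56 ± 0.335 SE, edgeR adjusted p = 0.397). The 3 ribosomal RNA rows took 17.3 to 34.7% of counts in TSLP mature and 35.0 to 40.1% in TSLP immature libraries, against 14.7 to 25% in the IL-3 libraries. TSLP mature library 1 stood apart from the others of its group, with the lowest ribosomal RNA share of the 3 and a summed level of 9 B cell genes of 190 CPM against 21.6 and 22.8 CPM. It also held the highest sums of neutrophil genes (1500 against 704 and 684 CPM) and of monocyte and macrophage genes (1320 against 639 and 608 CPM), so members' differences in TSLP are given with and without it.

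Summed markers of neutrophils, of monocytes and macrophages and of eosinophils were higher in mature than in immature libraries of both cytokines. The summed level of 10 neutrophil genes was 241 to 286 CPM in immature and 1220 to 1450 CPM in mature libraries of IL-3, and 354 to 393 and 684 to 1500 CPM in those of TSLP, with all 10 genes detected in each group. The summed level of 9 monocyte and macrophage genes was 211 to 353 CPM in immature and 648 to 978 CPM in mature libraries of IL-3, and 299 to 347 and 608 to 1320 CPM in those of TSLP, again with all 9 detected. Single genes did not all follow the sums. Of the 10 neutrophil genes, 4 were called higher and 1 lower in IL-3, and 8 and 1 in TSLP. The monocyte and macrophage genes gave 5 and 0 in IL-3, and 7 and 0 in TSLP. Of 3 tested eosinophil genes, 2 were higher and 1 lower in IL-3, and 2 and 0 in TSLP. All genes tested gave 24.1% and 22.1% in IL-3, and 12.9% and 12.2% in TSLP. Mast cell genes stayed at 0 to 8.90 CPM summed over 7 genes, and Tpsab1 and Mrgprb2, which encode a mast cell tryptase and receptor, had no count in any group. The summed B cell genes also differed between the cytokines, at 35.9 to 42.6 CPM in TSLP immature against 6.57 to 7.28 CPM in IL-3 immature libraries, and at 21.6 to 190 CPM in TSLP mature against 2.14 to 3.28 CPM in IL-3 mature libraries. Among the B cell genes, Pax5 and Igll1 had no count in IL-3 immature, Vpreb1 and Igll1 none in IL-3 mature and Vpreb1 none in TSLP immature cells. The part of these cells in the members' levels was not tested. In bulk RNA, a larger share of expressing cells and more RNA per cell cannot be told apart.

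Across the 5 genes, TSLP cells followed in 3 ways. Wdr95 and Amigo2 were low in TSLP immature cells and rose on maturation to 59.5 and 41.2% of the IL-3 mature level. Lypd6 and Adam19 were already expressed in TSLP immature cells and rose further, up to or past the IL-3 mature level. Kbtbd11 was already expressed in TSLP immature cells and was not higher in TSLP mature cells. The immature groups also differed in Itga2 and Cd9, which both rose with maturation in each cytokine. Itga2 had 86.4 CPM in TSLP and 27.3 CPM in IL-3 immature cells (log2 difference 1.67 ± 0.273 SE, edgeR adjusted p = 0.000981). Cd9 had 539 and 319 CPM there (0.76 ± 0.21 SE, edgeR adjusted p = 0.0261). Clec12a and Fcer1a were not called different between the immature groups (edgeR adjusted p = 0.085 and 0.517). The part of stage within the sort in the members' levels was not tested. In the comparison of TSLP mature with TSLP immature cells, the only one that the stated choice of genes did not use, 4 of the 5 genes were called higher (edgeR quasi-likelihood test, adjusted p under 0.05 over all 10861 genes), against 12.9% of all genes tested, and none was called lower, against 12.2%. The genes had been picked for a rise on maturation in the other cytokine, and with results of these libraries known, so this count is not one over genes picked blindly. Libraries of the compared groups did not overlap for all 5 genes, with 4 higher in TSLP mature than TSLP immature cells (20.4% of all genes) and Kbtbd11 lower (17.9%). Between the mature groups, Adam19 lay wholly higher in TSLP (20.9% of all genes) and Wdr95, Amigo2 and Kbtbd11 wholly lower (17.7%). Between the immature groups, Kbtbd11, Lypd6 and Adam19 lay wholly higher in TSLP (20.2%). The summed B cell and neutrophil genes also lay wholly higher there, and the summed basophil and mast cell genes wholly lower. All 5 members lay wholly higher in mature than immature cells of IL-3, as did 30% of all genes, which the choice of genes fixed.

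**Figure D1:**
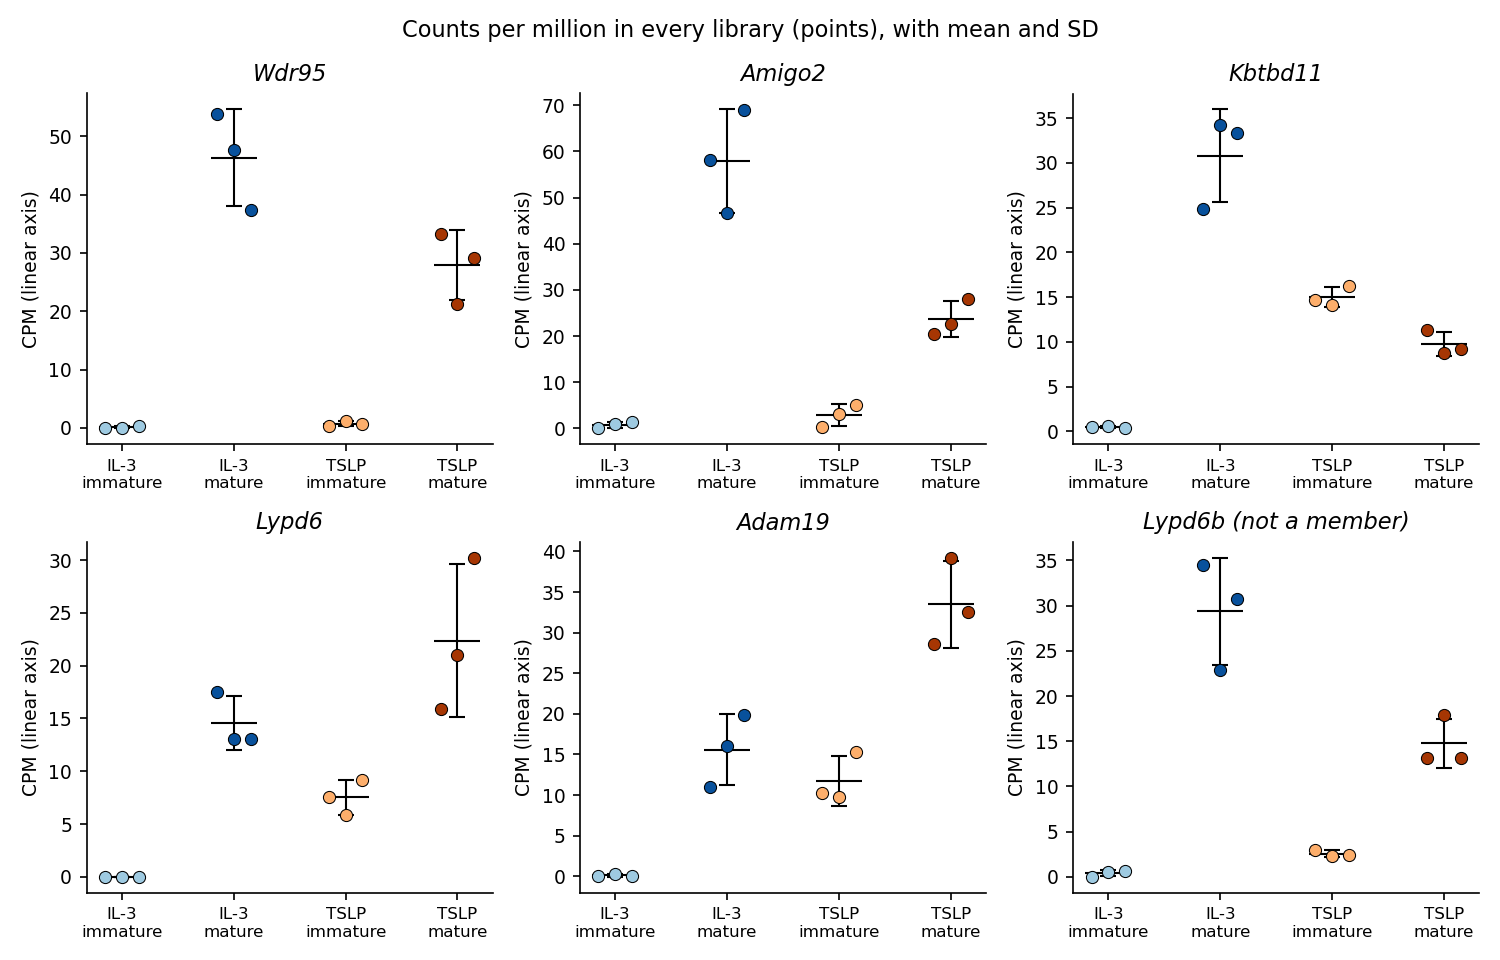
CPM (linear axes) of the 5 genes and of Lypd6b, the neighbour and relative of Lypd6, in the 3 libraries (points) of each group on the horizontal axis, with the mean (wide bar) and SD. Wdr95, Amigo2 and Lypd6b are low in both immature groups, whereas Kbtbd11, Lypd6 and Adam19 are low in IL-3 immature libraries only.

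Wdr95 showed the sharpest stage pattern of the 5 genes. It had 0, 0 and 0.331 CPM in the 3 IL-3 immature libraries and 53.8, 47.7 and 37.4 CPM in the IL-3 mature libraries. In TSLP cells it had 0.301, 1.17 and 0.681 CPM in the immature libraries and 33.2, 21.3 and 29.2 CPM in the mature libraries. Every mature library thus lay above every immature one, the TSLP mature libraries all lay below the IL-3 mature ones, and the immature groups overlapped. Over each group's summed reads, 293 counts in TSLP mature against 6 in TSLP immature cells gave a ratio of 41.1 (95% counting interval 18.7 to 113). Counting intervals here and below leave out the spread between libraries. The log2 difference was 5.27 ± 0.40 (SE, n = 3 per group, edgeR adjusted p = 1.72e-07), and it was 5.03 without TSLP mature library 1. TSLP mature cells reached 59.5% (95% counting interval 50.9 to 69.6) of the IL-3 mature level, or 50.5% without library 1, and TSLP immature cells 1.45% (0.528 to 3.18).

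Amigo2, the adhesion gene, followed the same order of groups. Its CPM were 0, 0.857 and 1.32 in IL-3 immature libraries and 58.1, 46.6 and 69.0 in IL-3 mature libraries. They were 0.301, 3.13 and 5.11 in TSLP immature libraries and 20.5, 22.7 and 28.0 in TSLP mature libraries. The TSLP immature libraries were uneven, from a single count in library 1 to 15 counts in library 3, and they overlapped the IL-3 immature libraries. The TSLP mature libraries lay between those of TSLP immature and IL-3 mature cells with no overlap. The ratio of TSLP mature to TSLP immature was 8.66 (5.69 to 13.8), with a log2 difference of 3.09 ± 0.445 (SE, edgeR adjusted p = 9.22e-05). Because of the uneven immature libraries, that difference ranged from 2.44 without TSLP immature library 1 to 3.80 without TSLP immature library 3, and was 3.10 without TSLP mature library 1. Amigo2 in TSLP mature cells stood at 41.2% (35.2 to 48.3) of its IL-3 mature level and in TSLP immature cells at 4.76% (3.02 to 7.18). The single TSLP immature libraries stood at 0.526, 5.47 and 8.94%, a spread that the counting interval does not cover. The TSLP immature level was 2.75% without TSLP immature library 3 and 7.32% without TSLP immature library 1.

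Lypd6, the Ly6 family gene, had no count in any of the IL-3 immature libraries and 17.5, 13.1 and 13.1 CPM in the IL-3 mature libraries. In TSLP cells it had 7.52, 5.86 and 9.19 CPM in the immature and 15.9, 21.0 and 30.2 CPM in the mature libraries. The TSLP immature libraries therefore all lay above the IL-3 immature ones and below the IL-3 mature ones, and the TSLP mature libraries overlapped the IL-3 mature ones. The 3-count limit was taken over the IL-3 immature group, with the counts of the other groups as exact. Against it the level was 42.0-fold higher in mature cells of IL-3 and 21.7-fold higher in immature cells of TSLP. With counting error in both groups, the lower ends of the counting intervals were 33.6-fold and 17.2-fold. The rise on maturation in TSLP was 2.90-fold (2.20 to 3.87) on summed reads, a log2 difference of 1.55 ± 0.292 (SE, edgeR adjusted p = 0.00138), and 1.65 without TSLP mature library 1. Lypd6 stood at 51.8% (37.7 to 70.6) of the IL-3 mature level before and at 150% (120 to 190) after maturation in TSLP. The latter value was carried unevenly, since the single TSLP mature libraries stood at 108, 143 and 206%.

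Adam19, the metalloproteinase gene, went furthest in TSLP cells. A single count was found among the 3 IL-3 immature libraries (0, 0.286 and 0 CPM), against 11.0, 16 and 19.8 CPM in the IL-3 mature libraries. TSLP immature libraries had 10.2, 9.77 and 15.3 CPM and TSLP mature libraries 28.6, 39.2 and 32.6 CPM. The TSLP immature and IL-3 mature libraries overlapped, and all TSLP mature libraries lay above all others. Adam19 rose 2.83-fold (2.27 to 3.56) on maturation in TSLP, a log2 difference of 1.5 ± 0.261 (SE, edgeR adjusted p = 0.000507) that was 1.51 without TSLP mature library 1. It stood at 77.0% (58.6 to 101) of the IL-3 mature level before and at 218% (177 to 271) after maturation in TSLP.

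Kbtbd11, the BTB-kelch gene, was the member with no rise on maturation in TSLP. It had 0.485, 0.571 and 0.331 CPM in IL-3 immature libraries and 24.9, 34.2 and 33.4 CPM in IL-3 mature libraries. In TSLP it had 14.7, 14.1 and 16.3 CPM in immature and 11.3, 8.80 and 9.23 CPM in mature libraries. No pair of groups overlapped, and the order ran from IL-3 mature over TSLP immature and TSLP mature down to IL-3 immature. All TSLP mature libraries lay below all TSLP immature ones, as for 17.9% of all genes tested. The level in TSLP mature cells was 1.53-fold lower (1.18 to 2) on summed reads, and the log2 difference of -0.62 ± 0.22 (SE) gave an edgeR adjusted p of 0.0505, just short of the threshold. It stayed negative in all other settings tried, and passed the threshold in 5 of 9 of them and in 7 of the 12 fits that left out 1 library, with -0.83 and an adjusted p of 0.0149 without TSLP mature library 1. Kbtbd11 stood at 49.2% (39.5 to 61.1) of the IL-3 mature level in TSLP immature cells and at 32.1% (25.2 to 40.6) in TSLP mature cells.

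**Figure D2:**
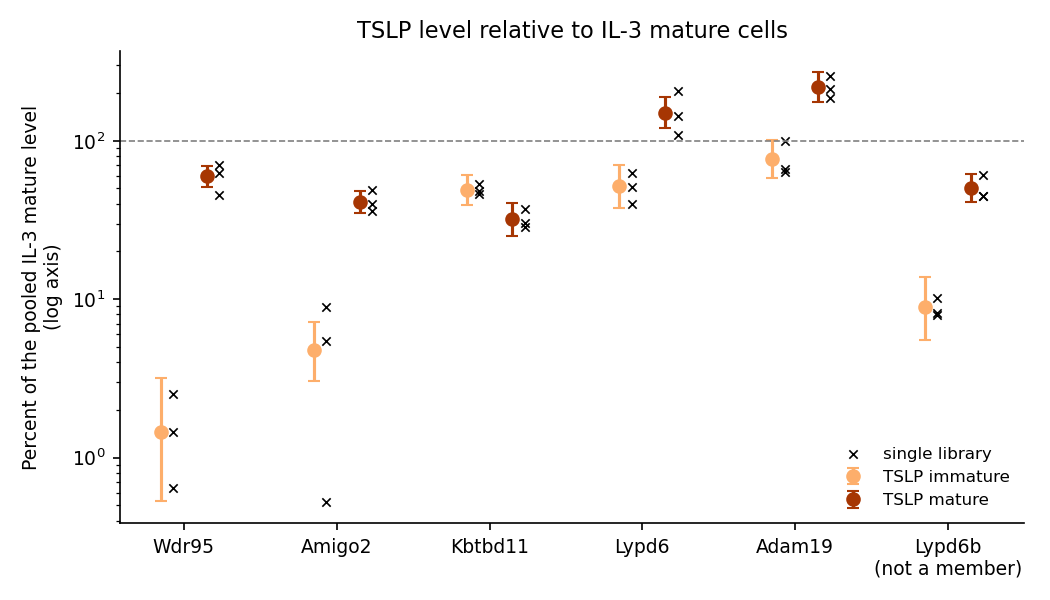
Level in TSLP immature (orange) and TSLP mature (brown) cells as percent of the IL-3 mature level of the same gene (log axis), from summed reads with 95% counting intervals, and for each library (crosses); the dashed line marks 100%. TSLP immature cells run from 1.45% for Wdr95 to 77.0% for Adam19, and Kbtbd11 is the gene whose mature value lies below its immature value.

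The ratios between the stages in each cytokine can be set side by side. Wdr95 differed 403-fold (71.9 to 16000, on 1 immature count) between the stages in IL-3 and 41.1-fold in TSLP. Amigo2 differed 70.1-fold (33.7 to 175) in IL-3 and 8.66-fold in TSLP. For Adam19 the values were 131-fold (23.1 to 5230, on 1 immature count) and 2.83-fold, although its TSLP mature level was the highest of the 4 groups. Between the immature groups alone, the TSLP level of Adam19 was 101-fold (17.8 to 4030) and that of Kbtbd11 32.3-fold (12.3 to 120) that of IL-3, against 3.34-fold (1.39 to 9.17) for Amigo2 and 5.84-fold (0.708 to 268) for Wdr95. These IL-3 values chose the genes and are given with no test.

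Per kilobase of exon, Amigo2 and Wdr95 were the most abundant of the 5 in IL-3 mature cells (18.1 and 13.5 CPM per kb), ahead of Kbtbd11 (4.29), Lypd6 (3.93) and Adam19 (2.15). The order turned over in TSLP immature cells, where Kbtbd11 (2.11 CPM per kb), Lypd6 (2.04) and Adam19 (1.66) stood above Amigo2 (0.860) and Wdr95 (0.196). In TSLP mature cells Wdr95 (8.04 CPM per kb) and Amigo2 (7.45) again led per kilobase, and Kbtbd11 (1.38) was the lowest of the 5. By CPM alone, Adam19 (33.4) stood above Wdr95 (28.0) and Amigo2 (23.6) there. This scaling takes reads as even along the exons, which was not tested.

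The counts of the members were exposed to other genes to unlike degrees. Wdr95 and Lypd6 shared no 50-base stretch of transcript with any other gene. Amigo2 shared 58 exonic bases (1.8% of its exons) with Pced1b on the opposite strand, and whether the counting used strand is not given in the sources used here, so reads of that overlap cannot be assigned. Kbtbd11 overlapped Gm37844 over 24.8% of its exonic bases. Gm37844 lies on the opposite strand and had no row of that name among the counted genes. Adam19 overlapped Gm16033 and Gm16034, also on the opposite strand and without such a row, over 8.3 and 6.7% of its exonic bases. Of its 50-base stretches, 8.35% occurred in other genes. Here too the use of strand is not given, so opposite-strand reads of these overlaps cannot be told from reads of Kbtbd11 or Adam19.

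A wider class shows where the 5 genes stand. A set of 19 genes, 5 of them the members, had at most 1 CPM in IL-3 immature and at least 10 CPM in IL-3 mature cells over the group's summed reads, a limit that both comparisons below share. Just inside the limits lay Gm36496 (0.932 and 10.4 CPM), and just outside lay Cd101 (1.05 and 37.7) and Rnd3 (0.699 and 9.91). The median TSLP immature level over the 19 was 15.4% of the IL-3 mature level, and the members held both ends of that range, with Adam19, Lypd6 and Kbtbd11 the 3 highest and Amigo2 and Wdr95 the lowest. In TSLP mature cells the median was 59.5%, the highest value was 351% (Fgfr1, a growth factor receptor), and Adam19 and Lypd6 ranked after Fgfr1. Of the 19, 16 were called higher in TSLP mature than in TSLP immature cells and 0 lower, against 12.9% and 12.2% of all genes tested. The 19 include the 5 members and were picked for a rise on maturation in IL-3, so this count too is not one over genes picked blindly. Kbtbd11 was the only gene of the 19 with more in TSLP immature than in TSLP mature cells.

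**Figure D3:**
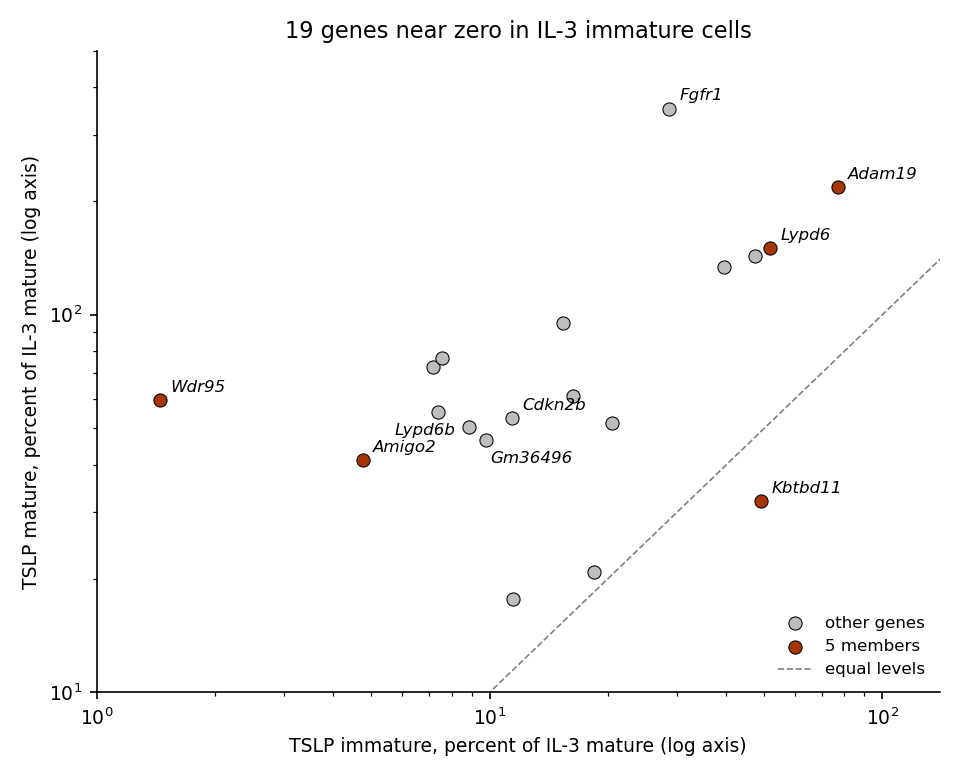
Each point is 1 of the 19 genes with at most 1 CPM in IL-3 immature and at least 10 CPM in IL-3 mature cells, with its TSLP immature level (horizontal) and TSLP mature level (vertical) as percent of IL-3 mature (log axes); the 5 members are brown, and only they and the genes named in the text carry a label. Wdr95 lies far left at 1.45%, Adam19 far right at 77.0%, and Kbtbd11 is the only point below the line of equal levels.

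The class included the gene next to a member. Lypd6b, which encodes a close relative of Lypd6, lies 117580 bases away on the same strand of chromosome 2. In IL-3 its level went from 0.411 ± 0.359 CPM in immature to 29.4 ± 5.91 CPM in mature cells, and in TSLP from 2.58 ± 0.372 to 14.8 ± 2.68 CPM (SD, n = 3). It rose on maturation in TSLP (log2 difference 2.49 ± 0.319 SE, edgeR adjusted p = 2.94e-05), to 50.4% (40.8 to 62.1) of the IL-3 mature level. TSLP immature cells stood at 8.88% (5.52 to 13.7), so Lypd6b ran closer to Wdr95 (Pearson r = 0.959 over the 12 libraries) and Amigo2 (0.951) than to Lypd6 (0.874). Lypd6b was not listed among the members, but it meets the rule that picked them, so these values are a description, as is its interaction of -3.37 ± 0.624 on the log2 scale (TSLP minus IL-3), in a test that called 4.19% of all genes.

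Of the 30 annotated protein-coding neighbours, 3 on each side of each member, 14 could be tested, and in TSLP 3 were called higher on maturation and 2 lower, against 12.9% and 12.2% of all genes. Beside Lypd6, the higher ones were Lypd6b and Rnd3, an atypical small GTPase (1.43 ± 0.328 SE, adjusted p = 0.00447). Beside Amigo2, Pced1b was higher (0.86 ± 0.243, adjusted p = 0.0156) and the amino acid transporter gene Slc38a1 lower (-0.81 ± 0.185, adjusted p = 0.0044). Beside Adam19, Thg1l was lower (-1.62 ± 0.537, adjusted p = 0.0357). None of the 3 tested neighbours of Wdr95 was called in TSLP, where Hsph1, a heat shock protein gene that ends 2393 bases away, gave 0.47 ± 0.198 (adjusted p = 0.0922). The 1 tested neighbour of Kbtbd11, Cln8, gave 0.07 ± 0.193 (adjusted p = 0.84). In IL-3, 5 of the 14 were called higher and 3 lower, against 24.1% and 22.1% of all genes. Beside Wdr95, Hsph1 (1.63 ± 0.2 SE, edgeR adjusted p = 6.45e-06) and Alox5ap (0.58 ± 0.228 SE, edgeR adjusted p = 0.0486) were higher. Pced1b, Lypd6b and Rnd3 were higher too, the last 2 resembling the members in the values that chose them. Slc38a1, Rpap3 and Cln8 were lower.

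**Figure D4:**
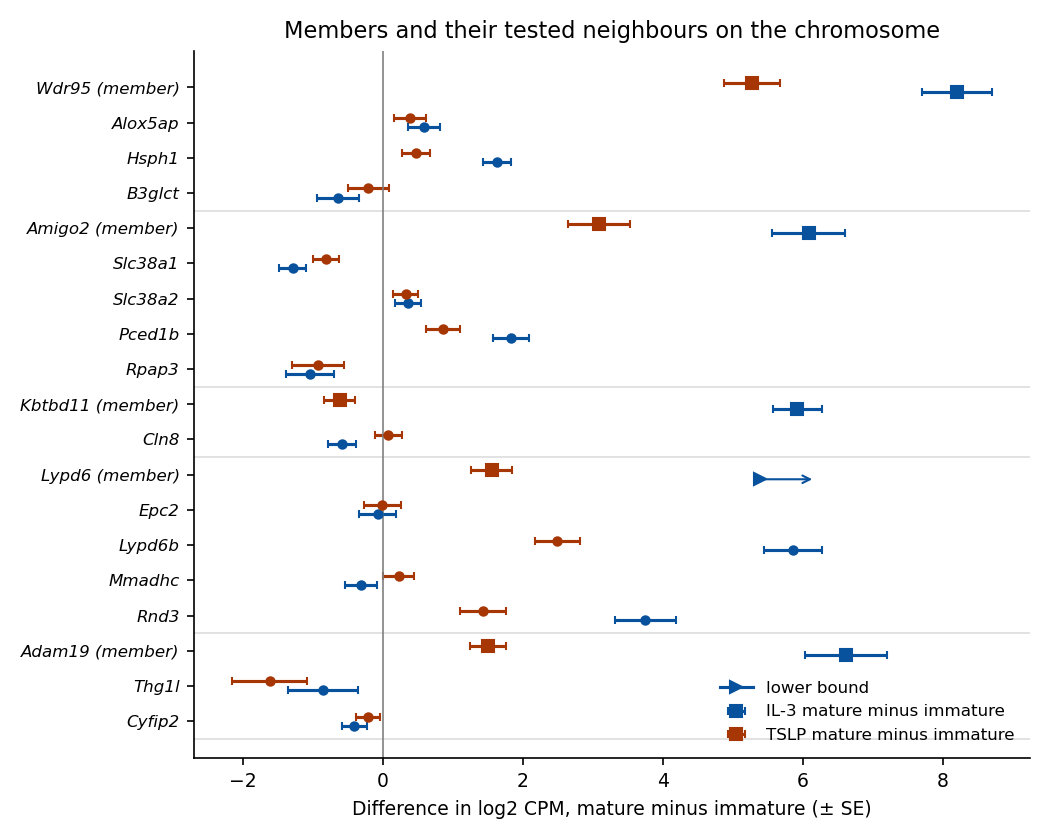
Difference in log2 CPM between mature and immature cells (± SE) in IL-3 (blue) and TSLP (brown) for each member (squares) and its tested neighbours on the chromosome (circles); the blue triangle of Lypd6 is a lower bound, since IL-3 immature libraries had no count, and the blue squares of Wdr95 and Adam19 rest on 1 immature count. Lypd6b and Rnd3 are the neighbours with the largest rise, and the other neighbours stay near zero or below 2.

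Relatives and partners of the members are read against the 12.9% of all genes called higher and 12.2% called lower on maturation in TSLP. Of 48 tested genes with other Wdr symbols, 5 were called higher and 5 lower, near those shares. Wdr92 was higher (1.73 ± 0.211, edgeR adjusted p = 1.81e-05), as were Wdr45, Wdr13, Wdr91 and Wdr81. Wdr76 was lower (-2.55 ± 0.371, adjusted p = 0.000101), as were Wdr12 and Wdr75, known for ribosome biogenesis, and Wdr90 and Wdr36. Neither of the other AMIGO genes reached the filter, and none of the 4 tested KBTBD relatives was called in TSLP. Of 19 genes of CUL3 ligases, Klhl21 was higher (1.23 ± 0.376, adjusted p = 0.0243) and Klhl22 lower (-1.03 ± 0.26, adjusted p = 0.00847).

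Around Adam19 and Lypd6, the lists are short, and their counts were not tested against those of other genes. Of 5 tested ADAM relatives, Adam8, another metalloproteinase gene, was the only one called in TSLP (1.69 ± 0.196, edgeR adjusted p = 1.03e-05). Adam8 had 48.7 and 420 CPM in immature and mature cells of IL-3 cultures and 166 and 537 CPM in those of TSLP cultures, the same order of groups as Adam19. Of 8 tested shedding partners, 2 were called higher and 0 lower. These were Rhbdf2 (1.00 ± 0.204, adjusted p = 0.00184), a gene for an inactive rhomboid that escorts the related sheddase ADAM17, and Furin (0.90 ± 0.191, adjusted p = 0.0025), whose protease activates ADAM precursors. Of 14 tested Wnt receptor and effector genes, 5 were called higher and 0 lower, with a median log2 difference of 0.45 against 0.03 over all genes. Rnf43, a ligase that removes Wnt receptors, gave 1.92 ± 0.259 (adjusted p = 4.80e-05), Axin2, a Wnt feedback gene, 1.22 ± 0.239 (adjusted p = 0.00137) and Fzd4, a Wnt receptor gene, 0.89 ± 0.293 (adjusted p = 0.0349), beside Dvl1 and Dvl2. None of the 13 nicotinic receptor subunit genes passed the filter.

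The same lists in IL-3 cultures, where they were not used to pick the members, gave 8 Wdr genes higher and 15 lower, 2 KBTBD genes higher (Kbtbd2 and Kbtbd3), 1 ADAM gene higher (Adam8), 4 CUL3 ligase genes higher and 2 lower, 5 Wnt genes higher and 1 lower, and 6 shedding partners higher and 0 lower. All genes tested were called higher in 24.1% and lower in 22.1% of cases. The Wnt co-receptor gene Lrp5 was the lower one (-1.88 ± 0.317, edgeR adjusted p = 0.000154), and it did not pass in TSLP (-0.30 ± 0.247, adjusted p = 0.417).

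Across the 12 libraries the members' log2 CPM ran most alike within a pair of pairs. Pearson's r was 0.981 for Lypd6 with Adam19 and 0.963 for Wdr95 with Amigo2, and 0.737 to 0.797 between these pairs. Kbtbd11 stood nearer to Lypd6 (0.881) and Adam19 (0.862) than to Amigo2 (0.725) and Wdr95 (0.683). These points share libraries and 4 group means and are a description. The 3 tested genes most like Wdr95 were Cd7 (0.993), Acsbg1 (0.991) and Pnrc1 (0.990), and those most like Amigo2 were the cell cycle inhibitor gene Cdkn2b (0.983), Gm11100 and Impact. For Lypd6 they were the transcription factor gene Bhlhe40 (0.990), Asb2 and Adgre1, the last also in the monocyte and macrophage list, and for Adam19 Asb2 (0.990), Bhlhe40 and Nek6, so that Asb2 and Bhlhe40 stood in both sets. Asb2, a ubiquitin ligase subunit gene, had 3 and 113 CPM in immature and mature cells of IL-3 cultures and 71.1 and 196 CPM in those of TSLP cultures. For Kbtbd11 they were Pstpip2 (0.953), Peli1 and Tgm1, of which Peli1, a ubiquitin ligase gene, had 12.4 and 39.5 CPM in IL-3 and 26.2 and 26.4 CPM in TSLP.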

How the data were processed

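The study sequenced RNA of sorted cells on an Ion Proton after oligo(dT) selection and amplification by PCR. The authors trimmed reads with Cutadapt, aligned them with Bowtie2 to reference RNA and deposited raw counts per gene. The submitters' notes name the builds GRCm39 and mm10, and the study's methods GRCm38, which is used here for coordinates. One row with no gene name held each library's total, 50% of the column, and was left out.

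Counts were tested with edgeR 4.0.16 (R 4.3.3): filterByExpr (minimum count 10, minimum total 15), TMM scaling and glmQLFTest over all 12 libraries with Benjamini-Hochberg adjustment, called at 0.05. The fit was tested on simulated data. Counting intervals are exact binomial (Clopper-Pearson, 95%) on summed reads. They leave out the spread between libraries, and PCR copies were not separated from molecules. The study describes the 3 libraries of a group as separate cultures.

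The 5 members and all gene lists were chosen with earlier results of these data known. The genes named are the 5 members, the tested neighbours and the genes of the sort and stage. For each member, the 3 tested genes with the highest Pearson r of log2 CPM (prior count 2) are named too. Each family or partner list adds up to 3 called genes per stage comparison, those with the largest difference in either direction. Others are named where a count is 5 or fewer, after their values were seen. Alternatives were DESeq2 1.42.0, other scalings, filters and library sets.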

Additional observations from a re-analysis of the deposited data

Results flagged for a closer look

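The stages of Kbtbd11 stood in opposite order in the 2 cytokines, with every TSLP mature library below every TSLP immature one (log2 difference -0.62) and every IL-3 mature library above every IL-3 immature one (5.92). The difference was not tested, since the IL-3 libraries chose the gene. For genes that were not members, the difference between the cytokines in the maturation effect was tested as an interaction (TSLP minus IL-3, edgeR adjusted p), which called 4.19% of all genes. Among the neighbours it was -3.37 for Lypd6b (adjusted p = 0.0061), -2.32 for Rnd3 (adjusted p = 0.0355) and -1.15 for Hsph1 (adjusted p = 0.0294), each rising more in IL-3. Lypd6b and Rnd3 also resemble the members in the values that chose them, Lypd6b meeting the limits and Rnd3 lying just outside, so these p-values do not stand apart from that choice. Around Adam19, it was -1.41 for Adam8 (adjusted p = 0.00859), -1.62 for Furin (adjusted p = 0.00314) and -1.32 for Tspan17, a tetraspanin gene (adjusted p = 0.046). It was -2.22 for Itga2, the CD49b gene used in the sort (adjusted p = 0.00287). Values above 0 were found for Lrp5 (1.58, adjusted p = 0.0379) and Wdr76 (3.36, adjusted p = 0.0185), with smaller differences between the stages in TSLP.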

How the results depend on the processing

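Wdr95, Amigo2, Lypd6, Adam19 and Lypd6b were called higher in TSLP mature cells in all 9 other settings and in all 12 fits without 1 library. Kbtbd11 was called lower with DESeq2 size factors (-0.65, adjusted p = 0.0393), with TMM recomputed on uncalled genes (-0.63, adjusted p = 0.0499), with at least 10 CPM in 3 libraries (-0.72, adjusted p = 0.0242), without Rn45s (-0.70, adjusted p = 0.0297) and, an alternative added after seeing the data, without all 3 ribosomal RNA rows (-0.68, adjusted p = 0.0314). It was not called with the DESeq2 test (-0.66, adjusted p = 0.0838), without the filter (-0.66, adjusted p = 0.129), on the 6 TSLP libraries (-0.65, adjusted p = 0.0821) or with the replicate block (-0.61, adjusted p = 0.0614). With 1 library left out it ranged from -0.83 to -0.60, with adjusted p from 0.0149 to 0.103.

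Equal replicate numbers were not taken as pairs, since the labels name nothing that they share. Both stages were sorted from cultures, so equal numbers may stand for the same culture, which the labels do not say. The deviations of same-numbered libraries from their group means correlated at -0.0769 to 0.388 over all pairs of groups (0.157, 0.0635 and 0.365 between the TSLP stages), which cannot settle it. The same number was still the best match in 12 of 18 cases, a hint from the data only, among them all 3 of IL-3 immature with each TSLP group. With the replicate block, 3067 genes were called in TSLP against 2731 without it, 1893 against 1443 between the immature groups, and no call of a member changed. Neighbours called in TSLP numbered 3 rather than 5 with at least 10 CPM in 3 libraries and on the TSLP libraries alone. The class of 19 genes shrank to 12 (4 members) at a limit of 0.5 CPM in IL-3 immature cells and to 7 (3 members) at 20 CPM in IL-3 mature cells, by construction.

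With 1 library left out, genes called in TSLP ranged from 1774 (without TSLP immature library 1) to 3456 (without TSLP mature library 1), in TSLP immature against IL-3 immature cells from 588 (without TSLP immature library 3) to 2243 (without TSLP mature library 1), in TSLP mature against IL-3 mature cells from 1658 (without IL-3 mature library 2) to 2968 and for the interaction from 240 (without IL-3 mature library 2) to 723 (without TSLP mature library 1). Neighbours called ranged from 3 (without TSLP immature library 2 or TSLP mature library 2 or 3) to 6 and partners from 6 to 15 (without TSLP mature library 1). The TSLP immature level of Kbtbd11 ranged from 44.5% (without IL-3 mature library 1) to 53.1% (without IL-3 mature library 2) of IL-3 mature. The cause was not tested. In IL-3 immature cells the members had 0 to 7 counts over 3 libraries, so folds against that group are known only within wide intervals.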
